A study of Mus musculus with 6 samples.

Results

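The glucocorticoid receptor (GR) was deleted in astrocytes, and the chromatin around 10 genes that astrocytes raise when they become reactive was compared with that of controls. The genes were taken by name. *Gfap*, *Vim* and *Nes* encode intermediate filaments, *Serpina3n*, *Lcn2*, *C3* and *C4b* secreted proteins, *Cd44* a surface receptor, *Stat3* a transcription factor and *Il33* a nuclear cytokine. An ATAC peak was assigned to a gene when its summit lay in the gene body or within 50 kb of it. This gave 229, 249 and 238 peaks in GR-con 1, 2 and 3, and 229, 245 and 236 peaks in GR-KO 1, 2 and 3, out of 179462 to 198929 peaks per library. To compare libraries, summits were gathered into non-overlapping sites, each reaching 200 bp to either side of a summit, that held a summit in at least 2 libraries, and 202 of 160877 such sites lay near the 10 genes.

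ATAC-seq maps open chromatin through the insertion of sequencing adapters by the Tn5 transposase. The nuclei came from the primary visual cortex (V1) of GR fl/fl mice at P21, all of which carried the floxed GR gene (*Nr3c1*) and had been injected with an AAV at P0 to P1. In GR-KO animals an AAV2/5 expressed Cre under the GfaABC1D promoter, joined by a self-cleaving peptide to EGFP-KASH, a nuclear tag, with 4x6T in the same vector. In GR-con animals ΔCre took the place of Cre in an otherwise alike AAV2/5. There were 3 libraries per condition, each from 50000 sorted DRAQ5+GFP+ events, with V1 pooled from several mice. Expression of Cre and of the sorting tag both depend on GfaABC1D, a compact promoter derived from the GFAP gene. The labels name no injury or other treatment. In a pool of nuclei, fewer open nuclei and less accessibility per nucleus cannot be told apart.

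Reactive astrocytes change their shape and expression after injury, infection or inflammation, and more GFAP and vimentin is the classical mark of this state. STAT3, activated downstream of IL-6 family cytokines, and NF-κB, activated by IL-1 and TNF, drive much of the programme, which includes acute-phase and complement proteins. GR is a ligand-activated transcription factor that is known both for inducing genes and for restraining inflammatory ones.

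The 9 astrocyte markers examined were *Aldh1l1*, *Slc1a3*, *Slc1a2*, *Aqp4*, *Gja1*, *Sox9*, *Aldoc*, *S100b* and *Gfap*, the last of which is also among the reactive genes. All 9 had a peak within 500 bp of a transcript start in every library. No such peak was found in any library for 6 of 8 microglial markers (*Cx3cr1*, *Csf1r*, *Aif1*, *Itgam*, *Spi1* and *C1qa*), whereas *P2ry12* and *Tmem119* had one in all 6. For neurons, 5 of 7 markers had a peak in all 6 libraries, as did both oligodendrocyte precursor markers, and *Mog*, *Mobp* and *Mag* had none. Of the 32 markers of other cell types, 14 had a peak in all 6 libraries. Over all sites, the conditions did not overlap in rank of fold at 7.57% (lower in GR-KO) and 11.6% (higher). Of the 32 markers, 3 separated the conditions by fold at these starts without overlap. They were *Tmem119* of microglia (3.78, 4.89 and 6.42 in GR-con against 7.76, 6.81 and 8.98 in GR-KO), *Pdgfrb* of mural cells (7.76, 9.21 and 8.52 against 10.2, 11.3 and 9.83) and *Gad2* of neurons (5.10, 4.14 and 5.07 against 3.79, 2.27 and 3.37). By percentile of fold among a library's peaks *Tmem119* overlapped, and the other two did not. Summed over a class, with 0 where there was no peak, fold overlapped between the conditions for microglial markers (11.2 to 16.1 in GR-con and 14.1 to 19.7 in GR-KO), neuronal markers (26.4 to 34.9 and 29.96 to 32.0), fibroblast and mural markers (17.8 to 20.6 and 19.7 to 21.1), oligodendrocyte markers (6.32 to 13.3 and 6.46 to 9.50) and their precursors (29.1 to 33.6 and 30.9 to 33.8). It did not overlap for the 4 endothelial markers (3.21 to 4.06 and 5.68 to 6.96), of which *Pecam1* and *Tek* had no peak, or for the 9 astrocyte markers (71.4 to 73.2 and 74.4 to 78.1). Singly, *Aldh1l1*, *Sox9* and *Aldoc* were higher by fold in GR-KO without overlap. *S100b* was lower (9.61, 9.01 and 9.46 in GR-con against 8.99, 8.72 and 8.47 in GR-KO). By percentile only *Slc1a3* and *Sox9* of the astrocyte markers separated, both higher. The part of other cell types in the site differences below was not tested. Peaks within *Nr3c1* numbered 18, 19 and 17 in GR-con and 23, 20 and 19 in GR-KO, a count that does not check the deletion.

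Each site is described by its fold, its −log10 p, its summit pileup and its score. The fold is the deposited enrichment of the summit over its local background, and the −log10 p is the deposited significance of that enrichment. The summit pileup is the number of extended reads that overlap at the summit. It was solved from the fold and the −log10 p, and the solutions lay within 0.01 of a whole number. Pileups are printed unscaled. Their median at sites with a peak in all 6 libraries was 75, 75 and 80 in GR-con 1 to 3 and 70, 71 and 69 in GR-KO 1 to 3, lower in every GR-KO library. The lowest local background per summit, which follows depth, was 4.29, 4.32 and 4.92 in GR-con 1 to 3 and 4.54, 4.28 and 4.34 in GR-KO 1 to 3. The score is the normal score of the rank of a site within its library. Scores were compared with limma over all 160877 sites, as GR-KO minus GR-con, with Benjamini-Hochberg adjustment and a threshold of 0.05. Positions are distances from the annotated 5′ end of the gene along its strand, and library values are listed for replicates 1, 2 and 3 in turn.

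The stretches of sequence below belong to some of the named sites. The *Serpina3n* and *C4b* promoters among them passed no comparison. Several sites that did pass are not shown, among them the *Vim* promoter, a pair upstream of *Stat3*, and sites near *Lcn2* and in an *Il33* intron. The stretches were read from the plus strand of GRCm38 (mm10) around each summit, and capitals mark matches to 1 of 6 motifs searched on both strands. The *Cd44* stretch held none.
Vim +4758, at a coding exon, chr2:13578605-13578810: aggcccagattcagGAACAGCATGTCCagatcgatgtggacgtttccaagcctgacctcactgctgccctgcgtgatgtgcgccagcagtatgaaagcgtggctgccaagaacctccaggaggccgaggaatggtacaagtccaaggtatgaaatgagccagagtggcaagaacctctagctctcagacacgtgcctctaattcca
Serpina3n promoter, chr12:104406535-104406728: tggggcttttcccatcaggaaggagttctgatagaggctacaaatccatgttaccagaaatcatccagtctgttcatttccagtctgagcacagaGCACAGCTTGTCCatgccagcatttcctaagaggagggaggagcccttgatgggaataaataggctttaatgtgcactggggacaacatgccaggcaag
C4b promoter, chr17:34743883-34744103: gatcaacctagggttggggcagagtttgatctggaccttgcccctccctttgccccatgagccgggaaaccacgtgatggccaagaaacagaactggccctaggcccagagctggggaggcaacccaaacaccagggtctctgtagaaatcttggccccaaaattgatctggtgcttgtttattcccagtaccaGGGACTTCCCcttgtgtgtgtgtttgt
C4b 933 bp upstream, chr17:34744690-34744940: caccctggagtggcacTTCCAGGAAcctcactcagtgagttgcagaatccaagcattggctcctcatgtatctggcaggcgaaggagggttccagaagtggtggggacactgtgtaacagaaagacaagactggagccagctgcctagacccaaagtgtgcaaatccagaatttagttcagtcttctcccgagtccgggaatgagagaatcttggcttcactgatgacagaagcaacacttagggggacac
Gfap 10641 bp upstream, chr11:102911428-102911678: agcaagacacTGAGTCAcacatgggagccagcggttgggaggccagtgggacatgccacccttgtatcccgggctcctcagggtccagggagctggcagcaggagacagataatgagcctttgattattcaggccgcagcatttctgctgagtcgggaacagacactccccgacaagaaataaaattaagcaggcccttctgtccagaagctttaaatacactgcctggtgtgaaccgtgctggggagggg
Il33 31119 bp upstream, chr19:29893870-29894120: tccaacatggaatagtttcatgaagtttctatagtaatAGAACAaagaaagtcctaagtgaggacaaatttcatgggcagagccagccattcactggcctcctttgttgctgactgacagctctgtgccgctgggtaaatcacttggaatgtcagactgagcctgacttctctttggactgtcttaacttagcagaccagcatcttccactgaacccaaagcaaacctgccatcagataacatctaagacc
Cd44 +127139, in Slc1a2, chr2:102774401-102774651: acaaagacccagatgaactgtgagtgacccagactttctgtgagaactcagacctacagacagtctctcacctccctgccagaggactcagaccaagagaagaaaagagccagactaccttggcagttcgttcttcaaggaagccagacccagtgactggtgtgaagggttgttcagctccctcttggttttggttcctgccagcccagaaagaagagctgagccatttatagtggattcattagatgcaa

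The capitals mark a relaxed GR palindrome (GNACANNNTGTNC) in the *Vim* and *Serpina3n* stretches, an NF-κB motif (GGGANTTNCC) in the *C4b* promoter, a STAT motif (TTCCNGGAA) upstream of it, an AP-1 motif (TGANTCA) upstream of *Gfap* and a GR half-site (AGAACA) upstream of *Il33*. Among the 202 sites near the 10 genes, the palindrome was found in 2 (0.99%, against 1.01% of all sites), which were the *Vim* exon site and the *Serpina3n* promoter. The half-site was present in 66 (32.7% against 30.6%), the AP-1 motif in 27 (13.4% against 11.4%), the STAT motif in 8 (3.96% against 1.47%) and the NF-κB motif in 5 (2.48% against 1.39%). The NFI motif (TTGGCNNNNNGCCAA) was found in 0 of the 202 and in 0.0845% of all sites. A palindrome can hold a half-site, and a match of letters is not a measure of binding.

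Few sites near the reactive genes passed a ranked test. By fold, 0 of 202 sites passed in either direction in limma, where 0.127% of all sites passed as lower and 0.0609% as higher in GR-KO, and at an unadjusted p under 0.05 there were 6 lower and 12 higher (8.91% of the 202 sites in both directions together, against 12.1% of all sites). By −log10 p, 1 site passed as lower and 2 as higher (0.835% and 0.76% of all sites), and at an unadjusted p under 0.05 there were 12 lower and 17 higher (14.4% against 13.4% of all sites). The sites that rose were the *Vim* promoter and a site 127139 bp from the *Cd44* start, and the lower site was at a *Vim* exon. That site had a peak in only 1 GR-KO library and met the minimum of 2 libraries through GR-con, where it is high, so its call is no test of a difference (264 of the 1344 sites called lower among all sites, 19.6%, were of this kind). All 3 calls were lost when a library was counted by any peak covering at least 1 bp of the site, by one covering more than 200 bp, or by a summit within 100 bp of the centre. They were also lost when the fit had no trend of variance with the mean, with limma adjusted p of 0.334 at the *Vim* promoter, 0.0852 at the *Vim* exon and 0.131 at the *Cd44* site. The median score difference of the 202 sites was 0.04 by fold and 0.0044 by −log10 p, against 0.02 and 0.0057 over all sites.

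Peak presence set few sites apart. At 0 of the 202 sites were peaks found in all 3 GR-con libraries but none of the GR-KO libraries (1.15% of all sites had this pattern), and 2 sites had the reverse pattern (0.618% of all sites). Libraries of the conditions did not overlap in rank of fold at 13 sites lower in GR-KO (7.57% of all sites) and 36 higher (11.6%). By rank of −log10 p these were 16 lower (8.45%) and 26 higher (11%). For a single value, an exact permutation test on 3 libraries a side has a smallest p of 0.1.

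**Figure D1:**
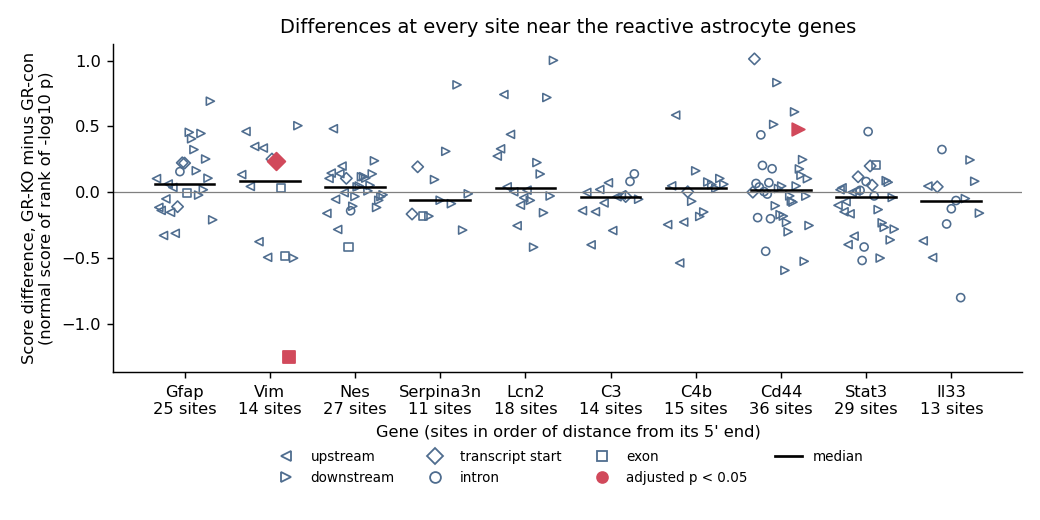
Difference in the score of −log10 p (GR-KO minus GR-con, vertical axis) at each of the 202 sites, by gene, with sites in order of distance from the 5′ end. Marker shape gives the place of the site, black lines are medians and red markers are the 3 sites with an adjusted p below 0.05.

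The windows also hold other genes. For 65 of the 202 sites (32.2%) the nearest protein-coding start was that of the reactive gene itself, and for 137 it belonged to another gene. There were 16 sites at a transcript start of the gene, 26 in its introns, 7 in its exons, 63 upstream and 90 downstream. A peak was present in all 6 libraries at 130 sites (64.4%, against 62.0% of all sites). Numbers of peaks per gene were farthest apart for *Lcn2*, with 21, 22 and 20 in GR-con and 25, 26 and 24 in GR-KO (exact permutation p = 0.1, two-sided, the smallest possible). For the other 9 genes the exact permutation p of these numbers ran from 0.2 to 1. Per 100000 peaks of a library, *Gfap* had a mean of 14.8 in GR-con and 16.6 in GR-KO (exact permutation p = 0.1), and *Lcn2* had 11.1 and 13.7 (exact permutation p = 0.1).

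Summit pileup allowed a second comparison at the 130 sites with a peak in all 6 libraries, in limma on the log2 scale, and its calls depended on how libraries were scaled. With medians set equal, 7 sites were lower and 10 higher in GR-KO (2.63% and 4.69% of all 99772 such sites). Quantile normalization gave 7 lower and 5 higher (2.93% and 3.24%), and scaling by the lowest local background gave 8 lower and 1 higher (3.94% and 1.97%). Under all 3 scalings, 7 sites passed as lower (2.54% of such sites) and 1 as higher (1.96%). The 7 lower sites lay upstream of *Gfap*, *Lcn2*, *C4b* and *Il33*, in an intron of *Il33* and at a pair of sites upstream of *Stat3*. The higher site was the *Cd44* site named above. Over all such sites the median log2 difference was 0.04 with medians equal, −0.0005 by quantiles and −0.05 by background.

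**Figure D2:**
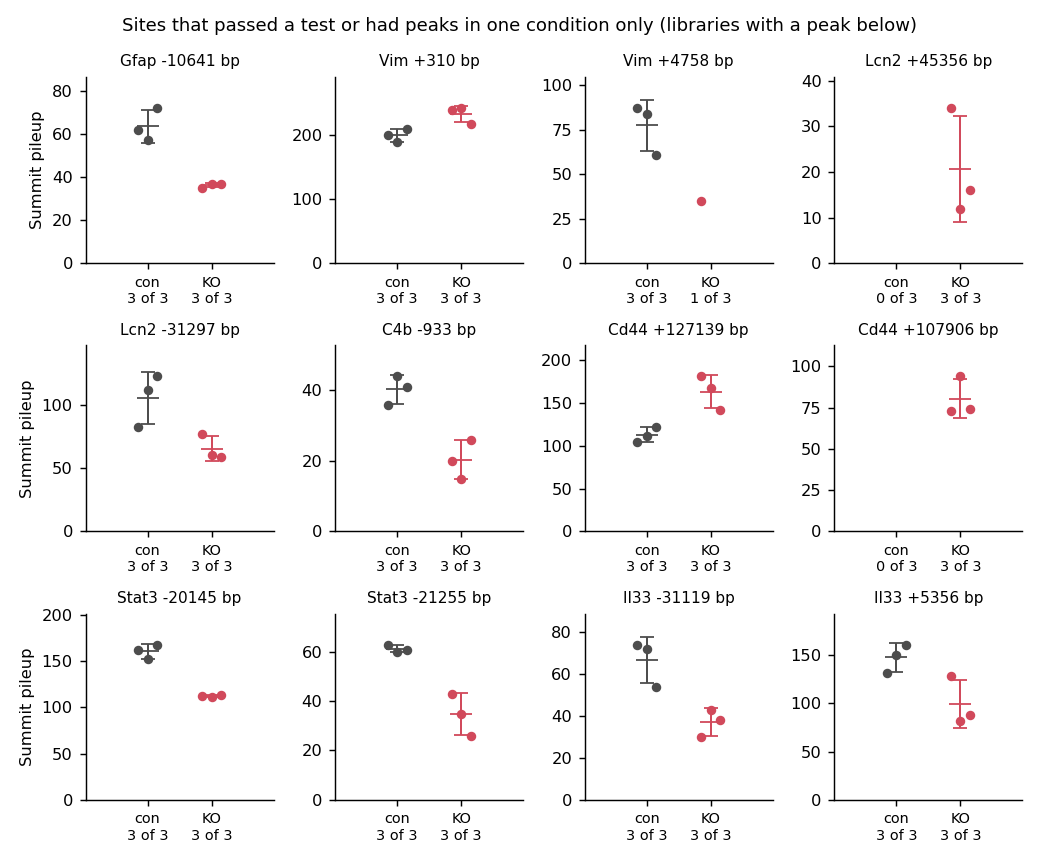
Summit pileup (vertical axis, unscaled, from 0) in each GR-con and GR-KO library at the 12 sites that passed a ranked test, passed under all 3 pileup scalings, or had peaks in every library of 1 condition only. Points are libraries and bars are mean ± SD where 3 libraries had a peak. At *Vim* +4758, 3 of 3 GR-con libraries and 1 of 3 GR-KO libraries had a peak.

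Protein-coding starts of 8 of the 10 genes were open. *Lcn2* had no peak within 500 bp of its start, nor in its gene body, in any library, and *C3* had none at its 5′ end. By mean percentile of fold among all sites the order was *Stat3* (92.3), *C4b* (87.0), *Il33* (81.6), *Cd44* (79.9), *Serpina3n* (78.9), *Vim* (72.7), *Nes* (64.0) and *Gfap* (55.9). Each gene overlapped the next in this order over the 6 libraries. Some annotated starts were of non-coding transcripts, namely the 5′ end of *Gfap*, an internal start of *Stat3* at +45922 and one of *C3* at +8088. The *Stat3* internal start had the highest percentile of any start site, 95.1.

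**Figure D3:**
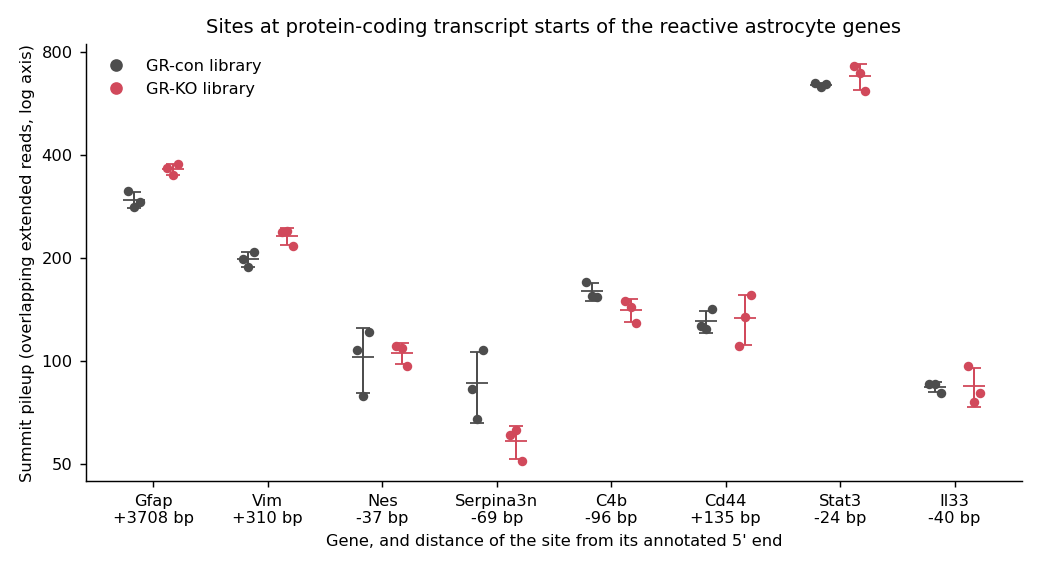
Summit pileup (vertical log axis) at the strongest site within 500 bp of a protein-coding transcript start, for 8 of the 10 genes, in each GR-con (grey) and GR-KO (red) library, with mean ± SD. *Serpina3n* ran from 68 to 108 in GR-con and from 51 to 63 in GR-KO, and *Stat3* had the highest values.

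*Gfap* encodes the main intermediate filament of astrocytes (chr11:102887336-102900912, minus strand). It had 25 sites, of which 20 had a peak in all 6 libraries. Its protein-coding transcripts start inside the annotated gene, and at the site 4 bp from such a start, +3708, the pileup was 314, 283 and 292 in GR-con and 366, 350 and 376 in GR-KO. Every GR-KO library was above every GR-con library, at 296 ± 15.9 in GR-con and 364 ± 13.1 in GR-KO (SD, n = 3). The score of −log10 p differed by 0.22 (SE 0.06, adjusted p = 0.0708) and that of fold by 0.16 (SE 0.10, adjusted p = 0.557), so neither passed in limma. On pileup the site passed with medians equal and by quantiles and missed by background (log2 differences of 0.43, 0.33 and 0.33, with adjusted p of 0.00120, 0.00615 and 0.0658, in the order medians, quantiles and background, kept below). A STAT motif, TTCCTGGAA, lay 6 bp from the centre of this site.

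Upstream of the coding start, the intronic site at +2321, chosen after its values were seen, had a pileup of 404, 447 and 372 in GR-con and 484, 465 and 477 in GR-KO. It too was higher in every GR-KO library, and it passed on pileup under the same 2 scalings (log2 differences of 0.36, 0.23 and 0.26, with adjusted p of 0.00616, 0.0418 and 0.186). The 5′ end of the non-coding transcript, 109 bp upstream, had 271, 308 and 313 in GR-con and 254, 268 and 293 in GR-KO, with overlap. Its score differed by −0.14 (SE 0.10, adjusted p = 0.636) by fold and by −0.11 (SE 0.07, adjusted p = 0.487) by −log10 p.

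A site 10641 bp upstream of the annotated *Gfap* end, inside *Kif18b*, was lower in GR-KO. Its pileup was 62, 57 and 72 in GR-con and 35, 37 and 37 in GR-KO, and its fold 9.28, 9.26 and 8.81 against 6.50, 5.88 and 6.02, both without overlap. The ranks missed the threshold, at −0.31 (SE 0.08, adjusted p = 0.149) by fold and −0.31 (SE 0.10, adjusted p = 0.147) by −log10 p, and the pileup passed under all scalings (log2 differences of −0.67, −0.68 and −0.77, with adjusted p of 0.0437, 0.0437 and 0.0198). At +25649, inside *Eftud2*, the pileup was higher in each GR-KO library, at 33, 25 and 25 in GR-con and 51, 39 and 42 in GR-KO, and the score of fold differed by 0.46 (SE 0.11, adjusted p = 0.147). On pileup it passed with medians equal and by quantiles and missed by background (log2 differences of 0.80, 0.82 and 0.71, with adjusted p of 0.0310, 0.0263 and 0.0736). The strongest *Gfap* site by fold lay 24297 bp upstream, 85 bp from a start of *Kif18b*, with 340, 339 and 347 in GR-con and 348, 309 and 324 in GR-KO and overlap.

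*Vim* encodes vimentin, the filament partner of GFAP in reactive cells (chr2:13573927-13582826, plus strand, 14 sites). At the promoter site, +310, the pileup was 199, 189 and 208 in GR-con and 238, 241 and 217 in GR-KO, and the fold was 7.99, 7.72 and 8.0 against 11.1, 10.4 and 9.91. The GR-KO libraries were above the GR-con libraries in both, with pileups of 199 ± 9.50 in GR-con and 232 ± 13.1 in GR-KO (SD, n = 3). The local background at this site was lower in every GR-KO library, at 24.3 ± 0.772 in GR-con and 21.2 ± 0.892 in GR-KO (SD, n = 3). Fold and −log10 p are both taken against this background, and its part in their rise was not tested. The score of −log10 p rose by 0.24 (SE 0.06, adjusted p = 0.0446) in limma, and that of fold differed by 0.27 (SE 0.07, adjusted p = 0.159) without passing. The call was lost when any 1 library was left out (adjusted p from 0.0995 to 0.176), and over all alternatives the adjusted p ran from 0.0264 to 0.334. On pileup it passed only with medians equal (log2 differences of 0.35, 0.29 and 0.26, with adjusted p of 0.0266, 0.0826 and 0.247).

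The *Vim* site at +4758 is the one with the GR palindrome shown above, GAACAGCATGTCC. Its pileup was 87, 84 and 61 in GR-con and 35 in GR-KO 1, with no peak in GR-KO 2 and 3. The fold was 4.12, 4.05 and 2.80 in GR-con and 1.96 in GR-KO 1, and the percentile of fold was 43.6, 43.2 and 25.5 in GR-con and 18.8 in GR-KO 1. Libraries without a peak were given the lowest rank, so the score by which it passed rests on filled-in values in GR-KO 2 and 3, and its values are given as a description. The strongest *Vim* site, 29524 bp upstream and near a start of *Trdmt1*, had 384, 420 and 386 in GR-con and 387, 395 and 412 in GR-KO.

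*Nes* encodes nestin, a filament of neural progenitors that reactive astrocytes can express again (chr3:87971078-87980451, plus strand, 27 sites). None of its sites passed a ranked test, the smallest adjusted p being 0.381 by fold and 0.275 by −log10 p in limma. The promoter, 37 bp upstream, had a pileup of 108, 79 and 122 in GR-con and 111, 109 and 97 in GR-KO, and the conditions overlapped. A stronger site lay 10043 bp upstream, outside any coding gene, at 330, 428 and 410 in GR-con and 435, 426 and 453 in GR-KO. Its score of fold differed by 0.32 (SE 0.13, adjusted p = 0.381), and on pileup it passed only with medians equal (log2 differences of 0.31, 0.19 and 0.21, with adjusted p of 0.0249, 0.167 and 0.324). A site 35156 bp upstream, inside *Isg20l2*, had 145, 126 and 127 in GR-con and 163, 154 and 154 in GR-KO.

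**Figure D4:**
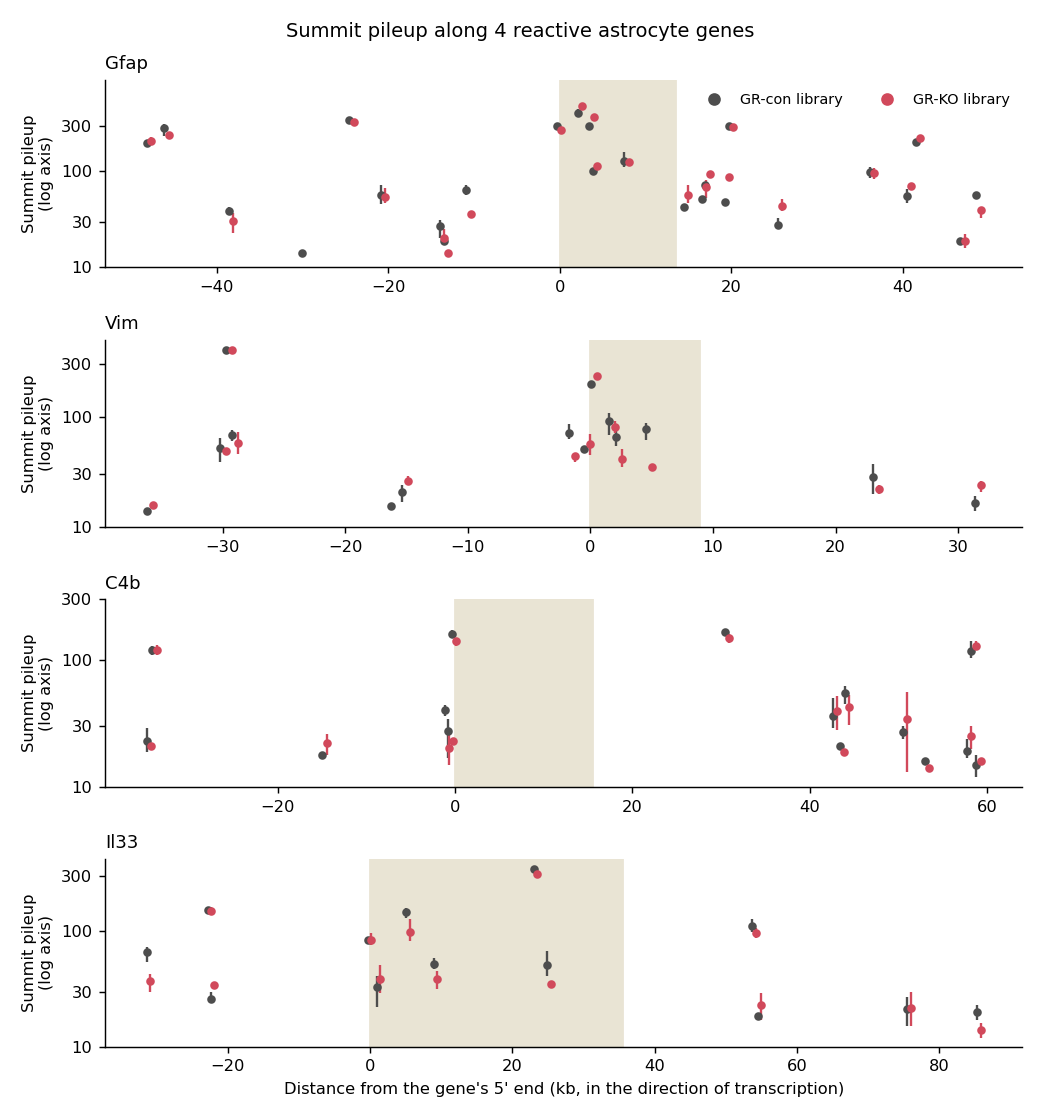
Mean summit pileup (vertical log axis) at each site along *Gfap*, *Vim*, *C4b* and *Il33* against distance from the annotated 5′ end (horizontal axis, kb), with the gene body shaded. Points are means over the GR-con (grey) and GR-KO (red) libraries that had a peak, drawn slightly apart, and lines span lowest to highest. The *Il33* site 31119 bp upstream and the *Gfap* site 10641 bp upstream show grey above red with no overlap.

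*Serpina3n* encodes an acute-phase serine protease inhibitor (chr12:104406729-104414329, plus strand, 11 sites). At its promoter, 69 bp upstream, the pileup was 83, 68 and 108 in GR-con and 61, 63 and 51 in GR-KO, and the fold was 12.5, 12.1 and 12 against 10.7, 10.7 and 9.73. Every GR-KO library was below every GR-con library in both, with pileups of 86.3 ± 20.2 in GR-con and 58.3 ± 6.43 in GR-KO (SD, n = 3). The score did not pass in limma, at −0.13 (SE 0.06, adjusted p = 0.434) by fold and −0.17 (SE 0.08, adjusted p = 0.376) by −log10 p. On pileup the promoter passed under no scaling (log2 differences of −0.41, −0.42 and −0.51, with adjusted p of 0.178, 0.196 and 0.0979). This is the other site with a GR palindrome, GCACAGCTTGTCC. A distal site at +43689 had no peak in GR-con or in GR-KO 1 and 23 and 20 reads in GR-KO 2 and 3, and the strongest site, at +33539, had 160, 125 and 116 in GR-con and 107, 116 and 109 in GR-KO. *Serpina3n* lies among paralogs, and reads that mapped to several places were not kept, so its values are uncertain.

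*Lcn2* encodes lipocalin-2, which binds bacterial siderophores (chr2:32384633-32388252, minus strand). All 18 of its sites lay outside the gene, and *Lcn2* was the nearest coding start of none. A site at +45356, inside *Dnm1*, had peaks in GR-KO only, with pileups of 34, 12 and 16. The site 31297 bp upstream, inside *Slc25a25*, had 83, 112 and 123 in GR-con and 77, 61 and 59 in GR-KO, all GR-KO values below all GR-con values, and passed on pileup under all scalings (log2 differences of −0.55, −0.56 and −0.65, with adjusted p of 0.0328, 0.0392 and 0.00906). The strongest site, at +34895 and 19 bp from a start of *Dnm1*, had 248, 205 and 230 in GR-con and 225, 206 and 212 in GR-KO.

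*C3* encodes the central complement component (chr17:57203970-57228136, minus strand, 14 sites). It had no call, with smallest adjusted p-values of 0.453 by fold and 0.259 by −log10 p in limma. The site at +8088 had a pileup of 22, 43 and 25 in GR-con and 19, 29 and 31 in GR-KO. A site 48902 bp upstream, 2062 bp from a start of *Vav1*, was lower in every GR-KO library, at 205, 209 and 217 in GR-con and 165, 172 and 164 in GR-KO, and its score of −log10 p differed by −0.14 (SE 0.05, adjusted p = 0.259). On pileup it passed under no scaling (log2 differences of −0.20, −0.25 and −0.30, with adjusted p of 0.303, 0.182 and 0.178). The strongest site of all 202 lay at +60908, at percentile 99.7, with 198, 204 and 199 in GR-con and 180, 158 and 195 in GR-KO.

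*C4b* encodes complement component 4 (chr17:34728380-34743882, minus strand, 15 sites). Its promoter, 96 bp upstream, had a pileup of 171, 155 and 154 in GR-con and 150, 144 and 129 in GR-KO. The fold was 14.7, 14.8 and 13.5 against 17.4, 16.4 and 14.4, while the local background was 10.7, 9.56 and 10.5 against 7.70, 7.83 and 8.03. Unscaled pileup and background were thus lower, and the fold on average higher, in GR-KO, and neither rank passed in limma (adjusted p = 0.420 by fold and 0.990 by −log10 p). On pileup the promoter passed under no scaling (log2 differences of −0.053, −0.089 and −0.148, with adjusted p of 0.864, 0.785 and 0.651).

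A weaker *C4b* site 933 bp upstream, in the pseudogene *Stk19-ps1*, holds the STAT motif shown above. Its pileup was 36, 44 and 41 in GR-con and 20, 15 and 26 in GR-KO, or 40.3 ± 4.04 in GR-con and 20.3 ± 5.51 in GR-KO (SD, n = 3), without overlap. It passed on pileup under all scalings (log2 differences of −0.89, −0.88 and −0.98, with adjusted p of 0.0227, 0.0250 and 0.00753) and in neither rank (adjusted p = 0.463 by fold and 0.376 by −log10 p). A site at +30663, at a coding exon of *Tnxb*, had 168, 159 and 167 in GR-con and 151, 135 and 159 in GR-KO, and its score of fold differed by −0.37 (SE 0.12, adjusted p = 0.257). *C4b* has a near copy, *C4a*, and reads shared by both were not kept, so these values are uncertain.

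*Cd44* encodes the hyaluronan receptor (chr2:102811141-102901665, minus strand, 36 sites). At the promoter, +135, the pileup was 127, 124 and 142 in GR-con and 111, 135 and 156 in GR-KO, and the conditions overlapped. The neighbouring site at +635, chosen after its values were seen, had no peak in GR-con 1, 36 and 59 reads in GR-con 2 and 3, and 96, 97 and 71 in GR-KO. Its score of −log10 p differed by 1.01 (SE 0.27, adjusted p = 0.0656) and missed the threshold in limma. In the intron at +81161 the pileup was 164, 164 and 146 in GR-con and 201, 180 and 195 in GR-KO, and downstream of the gene, at +97409, it was 88, 79 and 91 in GR-con and 68, 70 and 74 in GR-KO. The first of these was higher and the other lower in every GR-KO library, and neither passed a rank in limma (adjusted p = 0.183 and 0.545, by −log10 p). On pileup the site at +81161 passed with medians equal and by quantiles (log2 differences of 0.41, 0.37 and 0.32, with adjusted p of 0.0170, 0.0440 and 0.149). The site at +97409 passed under no scaling.

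The called *Cd44* site, at +127139, lay inside *Slc1a2*, which encodes the main astrocytic glutamate transporter, and 13353 bp from the nearest *Slc1a2* start. Its pileup was 105, 112 and 122 in GR-con and 181, 167 and 142 in GR-KO, and its fold was 2.30, 2.30 and 2.59 against 3.83, 3.31 and 3.05. All GR-KO libraries were above all GR-con libraries, with pileups of 113 ± 8.54 in GR-con and 163 ± 19.8 in GR-KO (SD, n = 3). The score of −log10 p rose by 0.48 (SE 0.12, adjusted p = 0.0440) in limma, and that of fold differed by 0.50 (SE 0.21, adjusted p = 0.401) without passing. On pileup the site passed under all scalings (log2 differences of 0.66, 0.63 and 0.56, with adjusted p of 0.000219, 0.000705 and 0.00334). Leaving out any 1 library ended the call by −log10 p (adjusted p from 0.0949 to 0.221), and over all alternatives the adjusted p ran from 0.000219 to 0.221. At +107906, outside both genes, weak peaks were present in GR-KO only, at 73, 94 and 74 reads and a fold of 1.80, 1.65 and 1.58.

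Of the 36 *Cd44* sites, 17 lay inside *Slc1a2*, where the local background was high. It had a median of 58.6 over these sites (37.1 to 68.7), against 7.33 over the other 19 (4.45 to 61.4). The median percentile of fold was 15.3 for the 17 sites and 39.3 for the others. The coding start of *Gfap* also stood on a high background, of 57.1, 58.4 and 57.2 against 60.3, 62.6 and 65.3, which was higher in every GR-KO library.

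**Figure D5:**
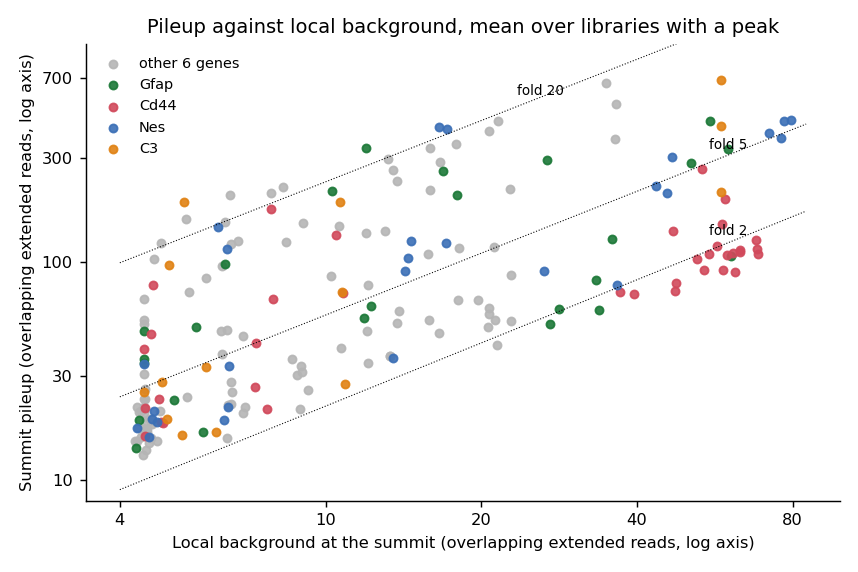
Summit pileup (vertical log axis) against local background (horizontal log axis) at the 202 sites, each a mean over the libraries with a peak. Dotted lines mark a fold of 2, 5 and 20. The *Cd44* sites (red) inside *Slc1a2* stand on a background of 37.1 or more, and *Gfap*, *Nes* and *C3* also have sites on a high background.

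*Stat3* encodes the transcription factor that carries IL-6 family signals to the nucleus (chr11:100885098-100939540, minus strand, 29 sites). None of its sites passed a ranked test, the smallest adjusted p being 0.391 by fold and 0.230 by −log10 p in limma. Its coding start, 24 bp upstream of which the site was centred, had the most reads of the start sites, at 649, 632 and 647 in GR-con and 731, 694 and 615 in GR-KO. The conditions overlapped, with scores that differed by 0.09 (SE 0.07, adjusted p = 0.618) by fold and 0.12 (SE 0.14, adjusted p = 0.777) by −log10 p. The non-coding start at +45922 had 310, 274 and 293 in GR-con and 289, 310 and 296 in GR-KO, with overlap.

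A pair of sites upstream of *Stat3*, inside *Cavin1*, was lower in GR-KO on pileup under all scalings. The site 20145 bp upstream had 162, 152 and 168 in GR-con and 112, 111 and 113 in GR-KO (log2 differences of −0.39, −0.43 and −0.48, with adjusted p of 0.0488, 0.0343 and 0.0186). Its fold was 10.7, 11.0 and 11.0 against 10.5, 9.78 and 10.3 and its local background 14.2, 12.9 and 14.3 against 9.76, 10.5 and 10.0, both lower in every GR-KO library. The site 21255 bp upstream had 63, 60 and 61 in GR-con and 43, 35 and 26 in GR-KO (log2 differences of −0.72, −0.71 and −0.82, with adjusted p of 0.0357, 0.0393 and 0.0133). Neither passed a rank in limma (adjusted p = 0.230 and 0.373, by −log10 p). The *Stat3* site of smallest p by fold, 17851 bp upstream and also inside *Cavin1*, had the opposite direction by fold. Its fold was 11.7, 12.8 and 11.4 against 13.5, 13.2 and 14, higher in every GR-KO library, and its score of fold differed by 0.15 (SE 0.06, adjusted p = 0.391) without passing in limma. Its pileup was 155, 159 and 158 in GR-con and 127, 138 and 139 in GR-KO, lower in every GR-KO library, and its local background was 12.3, 11.5 and 12.9 against 8.47, 9.49 and 9.0. On pileup it passed under no scaling (log2 differences of −0.09, −0.13 and −0.19, with adjusted p of 0.731, 0.644 and 0.527). The strongest *Stat3* site, 44054 bp upstream, had 199, 214 and 246 in GR-con and 191, 190 and 175 in GR-KO.

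*Il33* encodes interleukin-33, an alarmin held in the nucleus and released on damage (chr19:29925114-29960718, plus strand, 13 sites). Its promoter, 40 bp upstream, had a pileup of 86, 86 and 81 in GR-con and 97, 76 and 81 in GR-KO. The means were 84.3 ± 2.89 in GR-con and 84.7 ± 11.0 in GR-KO (SD, n = 3), with overlap, and the score of fold differed by 0.02 (SE 0.10, adjusted p = 0.974). The strongest site, 22532 bp upstream, had 151, 160 and 150 in GR-con and 149, 141 and 162 in GR-KO.

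A site 31119 bp upstream of *Il33*, with no other coding start nearer, was lower in every GR-KO library. Its pileup was 74, 72 and 54 in GR-con and 30, 43 and 38 in GR-KO, and its fold was 14.2, 13.7 and 9.30 against 5.60, 8.33 and 7.30. The score differed by −0.48 (SE 0.12, adjusted p = 0.156) by fold and by −0.37 (SE 0.11, adjusted p = 0.0976) by −log10 p in limma, so that neither passed, and the pileup passed under all scalings (log2 differences of −0.72, −0.71 and −0.82, with adjusted p of 0.0310, 0.0356 and 0.0104). The intronic site at +5356 had 132, 150 and 161 in GR-con and 128, 82 and 88 in GR-KO, each GR-KO value below each GR-con value, and also passed on pileup (log2 differences of −0.47, −0.49 and −0.56, with adjusted p of 0.0323, 0.0277 and 0.00666).

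A further 45 genes of the reactive programme gave 746 sites. They were 8 pan-reactive genes, 11 associated with neuroinflammation, 12 associated with ischaemia and 14 of the signalling upstream of STAT3 and NF-κB. By −log10 p, 15 sites (2.01%, against 0.835% of all sites) passed as lower and 7 (0.938% against 0.76%) as higher in GR-KO. By fold 4 (0.536% against 0.127%) passed as lower and 2 (0.268% against 0.0609%) as higher. Of these, 5 of the 15, 2 of the 7, 2 of the 4 and 2 of the 2 had a peak in fewer than 2 libraries of the lower condition and met the 2-library minimum only through the other, so these counts are given as a description. Peaks in all GR-con libraries but no GR-KO library were found at 12 sites (1.61% against 1.15%), and the reverse at 1 (0.134% against 0.618%). Of the 15 lower sites, 8 were near 1 gene, *Fkbp5*, of which 4 were of that kind. The median score difference was −0.0038 by fold and −0.0097 by −log10 p.

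*Fkbp5* encodes a co-chaperone of GR and is a known GR target. At 5672 bp upstream of *Fkbp5* the pileup was 232, 242 and 168 in GR-con and 61, 51 and 44 in GR-KO, and the score of −log10 p differed by −0.80 (SE 0.09, adjusted p = 5.04e-05). At +4656 it was 57, 80 and 50 in GR-con, with no peak in GR-KO. At 621 bp upstream the measures differed. The pileup was 268, 255 and 258 against 141, 137 and 104 and the score of −log10 p fell, with a difference of −0.31 (SE 0.06, adjusted p = 0.0119), while fold was 11.2, 11.7 and 12.1 against 15.0, 14.9 and 12.8, higher in every GR-KO library, without passing (adjusted p = 0.254 in limma).

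In *Lifr*, the receptor of leukaemia inhibitory factor, the site at +27515 had 92, 93 and 104 in GR-con and 34, 29 and 32 in GR-KO and a score difference of −0.80 (SE 0.12, adjusted p = 0.00148), while another, 27097 bp downstream of the gene, rose by 0.44 (SE 0.10, adjusted p = 0.0386). The promoter of *Slc10a6*, a steroid sulfate transporter, had 96, 106 and 97 in GR-con and 56, 42 and 48 in GR-KO and a score difference of −0.43 (SE 0.08, adjusted p = 0.00533). Sites near *Fbln5* and *Hspb1* also fell. In the other direction, a site 38495 bp upstream of *Ptx3*, which encodes the acute-phase protein pentraxin 3, had 13 reads in GR-con 1, no peak in GR-con 2 and 3, and 104, 109 and 69 reads in GR-KO. This *Ptx3* site met the minimum of 2 libraries only through GR-KO, where it is high, so its call is no test of a difference. *Cntfr*, the receptor of ciliary neurotrophic factor, had 48, 57 and 67 in GR-con and 99, 113 and 96 in GR-KO at +19559, a rise of 0.60 (SE 0.10, adjusted p = 0.00239). The *S100a10* promoter had 87, 70 and 108 in GR-con and 138, 151 and 148 in GR-KO, a rise of 0.34 (SE 0.07, adjusted p = 0.0216). Sites near *Tgm1* and *Serping1* rose too. Whether this wider list differed from the 10 genes was not tested.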

How the data were processed

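ATAC-seq libraries were made by the study's authors with the Omni-ATAC protocol from sorted V1 nuclei and sequenced paired-end. Per the methods, the authors ran the ENCODE ATAC-seq pipeline on mm10 without keeping reads that mapped to several places, and called peaks on each library alone at a p threshold of 0.01. The deposited lists give, for each peak, a fold enrichment of the summit over its local background, the −log10 p and −log10 q of that enrichment, a summit position and a score. The deposited score was not used. None of these values had been scaled between libraries by the authors, and read depth is not given in the sources used here.

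Genes and windows came from GENCODE vM21. Sites were taken greedily by within-library percentile of fold, and between 22.7% and 26.7% of the peaks near the genes lay in no site shared by at least 2 libraries. A library's value at a site was its strongest peak with a summit in it, and a site without a peak was ranked lowest. The ranks of fold and of −log10 p, as normal scores, were tested in limma (eBayes with a variance trend, no block, two-sided) over all sites. The study's own test needs reads and was not run. Each summit pileup was solved from fold and −log10 p, and its log2 was compared with limma after scaling by medians, by quantiles or by the lowest local background. The background scaling was chosen after the data were seen. These steps were tested on simulated data. Groups followed the labels. P-values measure only the spread between these libraries.

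The genes, the wider gene list and the motifs were chosen with earlier results of these data known. For each gene the text names the strongest site at an annotated transcript start, the strongest other site, those of smallest p by each rank, every called site and every site with peaks in all libraries of 1 condition only. Sites that passed on pileup under all 3 scalings, the *Stat3* coding start, the ordering by coding starts, *Gfap* +2321 and *Cd44* +635 were chosen after their values were seen. Of the wider list, the 5 genes of smallest p in each direction are named. The alternatives were other peak filters, other ways of assigning peaks to sites, other windows, a replicate block, no variance trend, another threshold and leaving out each library. Python 3.11.15, numpy 2.4.6, pandas 2.3.3, scipy 1.17.1, R 4.3.3 and limma 3.58.1 were used.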

Additional observations from a re-analysis of the deposited data

How the results depend on the processing

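Of the counts of sites near the 10 genes, those called by rank of fold were 0 in both directions under every alternative but pileup. By rank of −log10 p the 1 lower and 2 higher calls became 0 and 0 when peaks were assigned by covering at least 1 bp or more than 200 bp of a site or by a summit within 100 bp, 0 and 0 with the replicate block, 0 and 1 without a variance trend (the site called was *Cd44* +107906, which had peaks in GR-KO only and is none of the 3 above), 2 and 4 at an adjusted p under 0.1, and 1 and 3 at the 130 sites with a peak in all 6 libraries. At the 130 sites, *Vim* +4758 was left out, as it had a peak in only 4 libraries. The lower site there was *Il33* 31119 bp upstream, and *Gfap* +3708 joined the higher ones. On pileup, lower and higher calls were 7 and 10 by medians, 7 and 5 by quantiles and 8 and 1 by background. Leaving out 1 library gave 0 to 1 lower and 0 to 0 higher calls, and 0 to 3 sites with peaks in GR-con only. Sites with peaks in GR-KO only numbered 1 with a q-value under 0.01, with lists of equal length, by any overlap and within 100 bp, and 0 by an overlap of more than 200 bp, where GR-con only had 1. Windows of the gene body, 10 kb and 100 kb held 42, 76 and 325 sites, with 1, 1 and 2 higher and 1, 1 and 2 lower calls by −log10 p, 0, 0 and 2 sites with peaks in GR-KO only and 0, 0 and 1 in GR-con only. Same-numbered libraries did not deviate together (correlations of −0.0029 to 0.038), so the numbers were not taken to pair them. Under the replicate block the adjusted p was 0.110 at *Vim* +310, 0.0847 at *Vim* +4758 and 0.124 at *Cd44* +127139. At *Vim* +4758, leaving out any library but GR-KO 1 ended the call. For each of these changes the cause was not tested.

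Under the settings that changed a sign, the adjusted p in limma was 0.527 or more. By −log10 p, *C3* +8088 was 0.016 by an overlap of more than 200 bp, *Stat3* 17851 bp upstream was 0.011 by that overlap and 0.0046 by any overlap, and *Cd44* +135 was −0.0016 at sites in all 6 libraries. By fold, *C4b* 933 bp upstream was 0.0025 with summits within 100 bp. On pileup by medians, *Gfap* 109 bp upstream was 0.00086 in place of both ranks. By medians, quantiles and background, *C4b* 96 bp upstream was −0.053, −0.089 and −0.148 in place of both ranks, *Cd44* +135 was 0.152, 0.124 and 0.057 and *Stat3* 17851 bp upstream was −0.095, −0.135 and −0.190, in place of fold. With 1 library left out, values by −log10 p ran from −0.138 to 0.160 at *C3* +8088, −0.021 to 0.020 at *Stat3* 17851 bp upstream, −0.080 to 0.078 at *Cd44* +135, −0.021 to 0.036 at *C4b* 96 bp upstream and −0.0091 to 0.097 at *Il33* 40 bp upstream. By fold they ran from −0.1702 to 0.150 at *C3* +8088 and from −0.052 to 0.113 at *Il33* 40 bp upstream.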
